A study of Ovis aries with 24 samples.

Results

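Rumen and reticulum epithelium of lambs were compared at 5 days of age (d5), in 3 libraries of each chamber, so that 6 of the 24 libraries of the series entered the comparison. The libraries were chosen by their labelled tissue and age alone, and no measured value was used to choose them. In the series, epithelial RNA of rumen, reticulum, omasum and abomasum was sequenced at d5 and at 10 days of age (d10), in 3 libraries for each chamber and age. Per the labels, the tissue came from the rumen ventral sac and from the reticulum, and was taken off the muscle layer after slaughter. The study describes its rumen donors of d5 as healthy male Hu lambs of a commercial farm that were kept with their mothers on ewe's milk, with starter pellets offered only from d10. No treatment or genotype was given for any group. The labels do not say whether the libraries of a chamber came from separate lambs, so the p-values below measure the spread between these libraries, which may be partly technical.

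The rumen and the reticulum are adjoining chambers of the forestomach, and both are lined by a stratified squamous epithelium without glands. The lining of the rumen is raised into papillae, and that of the reticulum into honeycomb ridges whose larger crests carry a strand of smooth muscle that rumen papillae lack. In a lamb that still lives on milk most of the feed bypasses both chambers, and the lining is at an early stage of its growth. The comparison asks how far the linings of these neighbouring chambers already differ in their transcripts at that age.

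The deposited table lists sheep Ensembl gene identifiers without gene names. None of its 27054 identifiers could be matched to a symbol in the reference table at hand, so the genes are described by their levels, by their behaviour across libraries, ages and chambers, and in 4 cases by identifier. For the same reason the labelled tissues could not be checked against the markers of squamous epithelium, smooth muscle, connective tissue or blood cells, and the part of other cell types in the differences below was not tested. In bulk tissue, fewer cells of a type and less RNA per cell cannot be told apart.

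The rumen libraries of d5 held 15393591, 13041697 and 14981877 counts and the reticulum libraries 14158104, 13720418 and 14132516, within the range of 13041697 to 19650121 over the series. The rumen libraries resembled each other more than the reticulum libraries did. The biological coefficient of variation, the spread between libraries beyond counting error, was 19.1% in the rumen and 32.9% in the reticulum, and the median SD of a gene on the log2 scale of CPM (counts scaled to a library total of 1000000) was 0.18 and 0.34. Across genes, which are not independent replicates, the correlation of log2 CPM between libraries ran from 0.974 to 0.976 in the rumen and from 0.941 to 0.957 in the reticulum. Transcripts of the glandular abomasum were summed over 27 genes that were chosen as abundant in every abomasum library and at most at 1% of that level in the rumen, so that a low level in the rumen was set by the choice. The sums stood at 0.00625%, 0.0225% and 0.0838% of the abomasal level in rumen libraries 1 to 3 and at 0.0205%, 0.0226% and 0.0681% in reticulum libraries 1 to 3. In both chambers library 3 was the highest, and none of the 14 of these genes that were tested differed between the chambers. Of all genes tested only 0.912% differed, so 14 genes are too few to show equal amounts in the chambers.

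Most genes were shared. At 1 CPM or more in every library, 13051 genes were detected in the rumen and 13022 in the reticulum, and 12631 of them in both. Of the 14370 genes tested, 131 (0.912%) differed between the chambers at an adjusted p under 0.05 by the quasi-likelihood test of edgeR with Benjamini-Hochberg adjustment. The differences leaned towards the reticulum, where 97 genes were higher (0.675% of those tested), while 34 genes were higher in the rumen (0.237%). The median log2 fold change over all genes tested was 0.0016, a value that the scaling sets close to 0.

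Same-numbered libraries of the chambers deviated together from their group means, with correlations across genes of 0.318, 0.138 and 0.351 for numbers 1, 2 and 3. With the number as a block, 588 genes (4.09% of those tested) passed, 243 of them higher in the rumen and 345 in the reticulum, and all 131 genes were among them in the same direction. The 457 genes that passed with the block alone differed less, with a median absolute log2 fold change of 1.26 against 2.23 for the 131, and 209 of them were higher in the rumen. The lean towards the reticulum was thus smaller among them. The number of genes depended on every single library. Without rumen library 1, 2 or 3, edgeR gave 4, 25 and 8 genes, and without reticulum library 1, 2 or 3 it gave 199, 746 and 34. Without reticulum library 2, 402 of the 746 genes were higher in the rumen, so the lean was gone there, and 130 of the 131 genes were among the 746. DESeq2 gave 778 genes, of which 296 were higher in the rumen. All 131 genes kept the direction of their difference in each of these fits, which reuse the same libraries. For all 131 the libraries of the chambers did not overlap, so a reversal was hardly possible and the kept direction is no separate support.

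**Figure D1:**
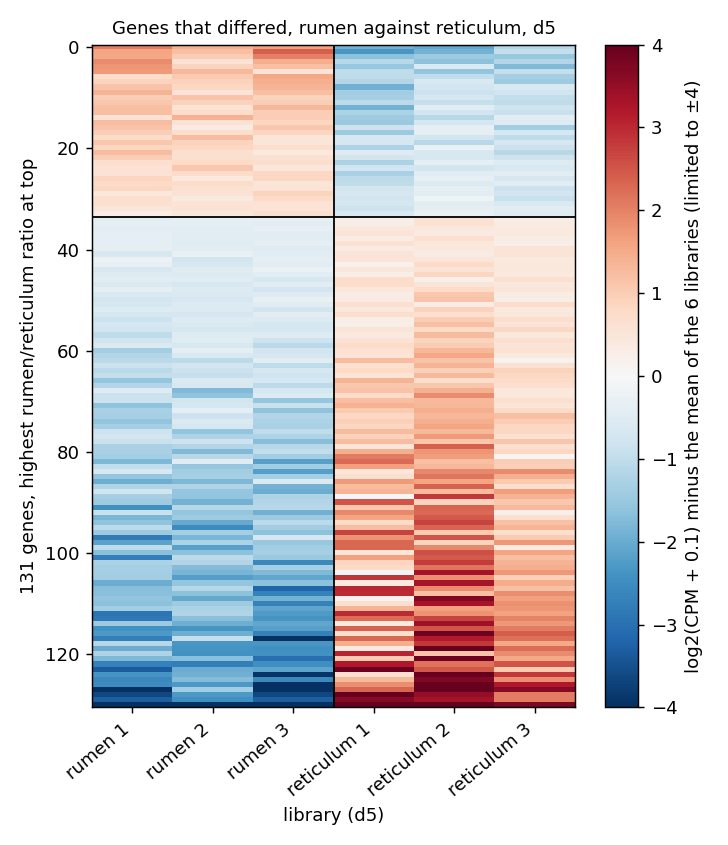
The 131 genes that differed between rumen and reticulum at d5 are drawn as horizontal lines across the 6 libraries, ordered by fold change, with each gene's log2(CPM + 0.1) set against its mean over the 6 libraries and coloured from blue (low) to red (high). The 34 genes higher in the rumen stand above the black line and the 97 higher in the reticulum below it, where colours are stronger and reticulum library 2 is often the darkest.

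The genes higher in the reticulum differed by more than the genes higher in the rumen. The median absolute log2 fold change was 2.97 for the 97 reticulum genes, with a maximum of 9.47. It was 1.62 for the 34 rumen genes, with a maximum of 3.52. Among the reticulum genes, the median log2 fold change was -4.21 for 20 genes picked below for a high level in reticulum library 2. It was -2.23 for the other 77. A log2 fold change over 3 was seen for 47 reticulum genes and 3 rumen genes, and one over 5 for 15 reticulum genes and no rumen gene. The rumen genes were on the other hand not rarer transcripts. Their mean level in the higher chamber ran from 6.38 to 2345 CPM with a median of 37.0, against 1.19 to 1371 CPM with a median of 20.5 for the reticulum genes. In all 131 genes the 3 libraries of one chamber lay above the 3 of the other. That was so for 23.5% of all genes tested. With a minimum log2 fold change of 1 built into the test, 9 genes passed, 8 of them higher in the reticulum.

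**Figure D2:**
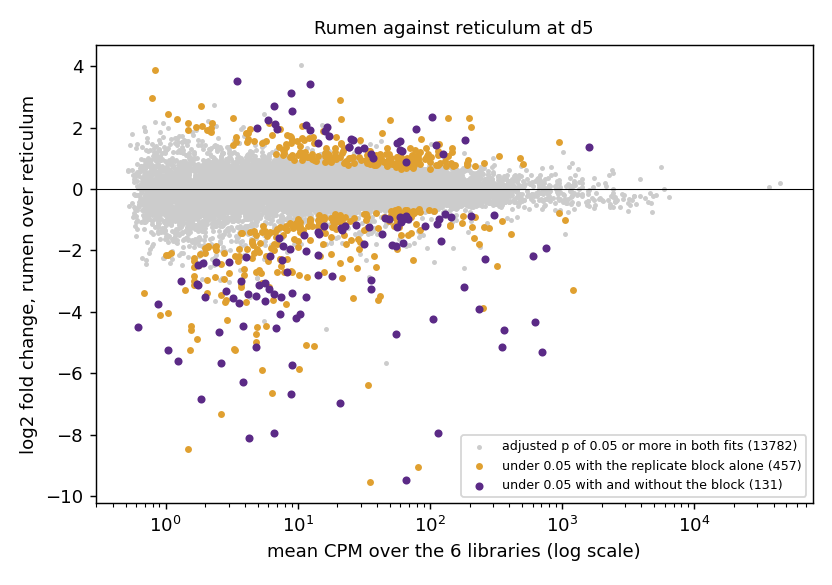
The log2 fold change of rumen over reticulum at d5 is plotted against the mean level in CPM over the 6 libraries (log axis) for each gene tested. Purple points are the 131 genes that passed, which run from -9.47 to 3.52, orange points the 457 that passed with the replicate block alone, and grey points the rest.

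ENSOARG00000014915 showed the largest difference of all genes that passed. It stood at 166, 153 and 78.1 CPM in reticulum libraries 1 to 3 and at 0.260, 0.230 and 0.0667 CPM in rumen libraries 1 to 3, the latter being 4, 3 and 1 counts. Every reticulum library was thus far above the rumen, where the transcript was close to the limit of detection. The log2 fold change of rumen over reticulum was -9.47 ± 0.46 (SE), with an adjusted p of 6.21e-05 by edgeR and 1.04e-07 with the replicate block. It passed in all 18 alternative analyses, and no alternative brought the log2 fold change above -9.06. A contrast in the same direction was seen at d10, where the reticulum held 319, 93.9 and 68.6 CPM and the rumen 1.29, 0.596 and 0.236. The log2 fold change there was -8.03, with an adjusted p of 0.0556 by edgeR and 0.00167 with the block. The omasum was spread between these levels, from 1.27 to 19.7 CPM at d5 and from 44.5 to 259 at d10, and the abomasum lay at 0.763 CPM or less. Omasum libraries 1 and 2 of d5, here at 2.14 and 1.27 CPM, carried 7.37% and 94.1% of the abomasal level of the 27 genes. The part of that signal in this and the other d5 omasum values below was not tested.

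ENSOARG00000014318 was lower in level but similarly one-sided. Reticulum libraries 1 to 3 held 172, 133 and 56 counts (12.1, 9.69 and 3.96 CPM), and the rumen libraries 0, 1 and 0 counts. Scaled to the totals, the reticulum held 373 times the rumen level, with an exact 95% interval of 66.5 to 14776 that covers counting error only. The adjusted p was 0.00792 by edgeR and 0.00017 with the block, and the gene passed in 13 of 18 alternative analyses. At d10 the rumen again held 0, 1 and 0 counts, against 31.1, 3.27 and 24.2 CPM in the reticulum. The log2 fold change there was -9.64, with an adjusted p of 0.0583 by edgeR and 0.0179 with the block. The omasum held 0.0623 to 0.458 CPM at d5 and 3.40 to 5.20 CPM at d10, and each omasum library of d5 lay below every reticulum library.

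Among all genes listed, 5, ENSOARG00000014318 among them, were at 1 CPM or more in every reticulum library and at no more than 3 counts in the rumen libraries together. All 5 passed the test, with and without the block, against 0.912% of all genes tested without the block and 4.09% with it. They were picked from the same d5 counts, so their passing is no separate support. No gene was seen in the opposite state, present in every rumen library and nearly missing from the reticulum. The 5 genes were found in the rumen at 1 to 2 counts in 43417165, and their level in the reticulum ran from 1.09 to 20.3 CPM. The most abundant of the 5 stood at 20.3, 14.1 and 5.02 CPM in reticulum libraries 1 to 3, and in the omasum, over both ages, between 13.7 and 482 CPM.

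Among the genes higher in the rumen, ENSOARG00000010036 had the largest log2 fold change, 3.52 ± 0.43 (SE), with an adjusted p of 0.0188 by edgeR and 0.00176 with the block. Rumen libraries 1 to 3 held 7.99, 5.14 and 6.01 CPM and reticulum libraries 0.424, 0.364 and 0.778 CPM, so every rumen library was several times above the highest reticulum library. At d10 it stood at 1.37, 3.47 and 2.30 CPM in the rumen and 2.15, 1.84 and 0.357 CPM in the reticulum, and the libraries overlapped (log2 fold change 0.56, unadjusted p 0.400 by edgeR). The gene passed in 12 of 18 alternative analyses at d5.

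ENSOARG00000020784 was higher in the rumen at both ages. At d5 it stood at 19.4, 15.0 and 34.3 CPM in rumen libraries 1 to 3 and at 1.20, 1.68 and 3.25 CPM in reticulum libraries 1 to 3, a log2 fold change of 3.41 ± 0.45 (SE) with an adjusted p of 0.0226 by edgeR (0.00017 with the block). At d10 it was higher in both chambers, at 175.8, 82.8 and 190.5 CPM in the rumen and 21.5, 8.86 and 33.8 CPM in the reticulum, a log2 fold change of 2.56 with an adjusted p of 0.0920 (0.0180 with the block). Every rumen library lay above every reticulum library at each age. In the omasum it was between 0.153 and 10.5 CPM, and in the abomasum between 1.92 and 7.05. At d5 it passed in 12 of 19 alternative analyses.

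**Figure D3:**
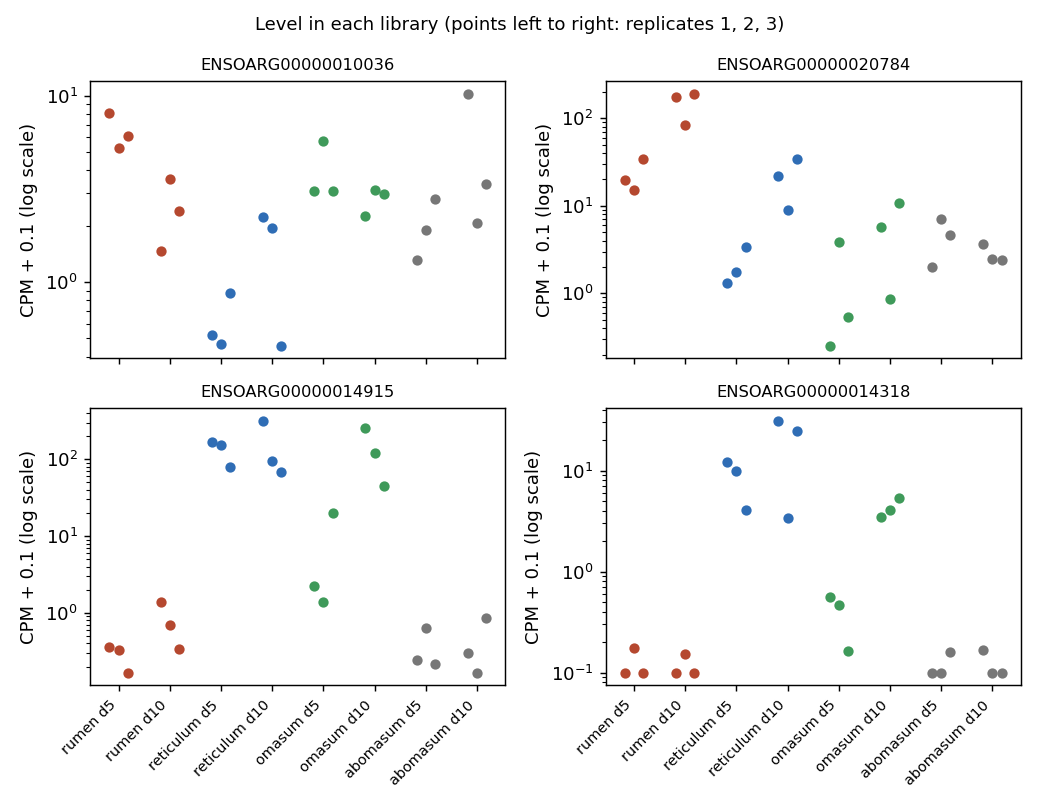
CPM + 0.1 of the 4 genes named by identifier is plotted (log axis) in each library of rumen, reticulum, omasum and abomasum at d5 and d10, each point being a library (numbers 1 to 3 from left to right). The pair higher in the reticulum stands at 1.29 CPM or less in every rumen library of both ages. Of the pair higher in the rumen, only ENSOARG00000020784 keeps the chambers apart at d10.

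Abundant transcripts were also among the genes that passed. The most abundant gene among those higher in the rumen stood at 2107, 2999 and 1929 CPM in rumen libraries 1 to 3 and at 839, 861 and 928 CPM in the reticulum, a log2 fold change of 1.37 ± 0.23 (SE) with an adjusted p of 0.0360 by edgeR. At d10 the libraries of the chambers overlapped, when the reticulum held 1947, 1291 and 1741 CPM against 2526, 2730 and 1442 CPM in the rumen (log2 fold change 0.21). Another gene was at 256, 366 and 216 CPM in the rumen and 99.9, 91.4 and 77.1 CPM in the reticulum at d5, and at d10 the rumen stood at 95.5, 155 and 57.4 CPM and the reticulum at 122, 123 and 114 CPM, a log2 fold change of -0.42. The gene next in abundance was at 241, 180 and 106 CPM against 36.7, 24.4 and 38.1 CPM at d5. Its rumen libraries were also all above the reticulum at d10, at 98.6, 89.2 and 102.7 CPM against 32.6, 45.2 and 58.3 CPM (log2 fold change 0.87, adjusted p 0.157 by edgeR).

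On the reticulum side, 20 genes with uneven levels between the reticulum libraries were kept apart, and they included the most abundant gene. Of the other 77 genes, the most abundant stood at 1572, 986 and 1027 CPM in the reticulum and at 209, 408 and 374 CPM in the rumen, a log2 fold change of -1.92 with an adjusted p of 0.0356 by edgeR. At d10 it was higher in both chambers and the libraries overlapped, at 10616, 2043 and 7138 CPM in the reticulum and 9241, 4539 and 4606 CPM in the rumen (log2 fold change -0.33). The next of the 77 in abundance, at 1188, 1124 and 631 CPM against 146, 274 and 242 CPM at d5 (log2 fold change -2.20), also showed little contrast at d10 (log2 fold change -0.07). The gene after it did not lose its contrast, with 656, 903 and 548 CPM against 19.2, 43.6 and 27.2 CPM at d5 (log2 fold change -4.58, adjusted p 0.00133) and a log2 fold change of -4.68 at d10. The lowest adjusted p of all belonged to a gene of tight replicates, at 111, 122 and 89.8 CPM in the reticulum and 3.96, 4.14 and 4.67 CPM in the rumen, with a log2 fold change of -4.71 ± 0.18 (SE) and an adjusted p of 1.85e-05 by edgeR.

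Levels within the reticulum were uneven for many of the genes higher there. The highest of the 3 reticulum libraries was more than 3 times the lowest for 31 of the 97 genes (32.0%). It was so for none of the 34 rumen genes and for 1723 of the 14370 genes tested. Between the rumen libraries the ratio was over 3 for 11 of the 97 genes, none of the 34 and 640 of all genes tested. Ratios with a library at 0 counts were not counted. Reticulum library 2 was the highest of the 3 for 61 of the 97 genes (62.9%), for 20 of the 34 rumen genes (58.8%) and for 50.2% of all genes tested. A group of 20 genes, picked after the values were seen because reticulum library 2 was their highest and more than 3 times their lowest, had median levels of 6.64, 27.2 and 8.07 CPM in reticulum libraries 1 to 3 and of 0.715, 0.843 and 0.667 CPM in rumen libraries 1 to 3. They made up 0.0871%, 0.968% and 0.266% of the counts of the reticulum libraries. The most abundant of them stood at 214, 3122 and 777 CPM in the reticulum and at 42.2, 31.5 and 29.9 CPM in the rumen (log2 fold change -5.29 ± 0.84 (SE), adjusted p 0.0317 by edgeR).

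The levels of the 20 genes were also read in libraries that were not used to pick them. At d10 their medians were 27.2, 64.9 and 6.97 CPM in reticulum libraries 1 to 3, with library 3 the lowest for all 20, for 40 of the 77 other genes higher in the reticulum and for 52.4% of all genes tested, and 0.396, 0.839 and 0.737 CPM in the rumen. The medians of the omasum were 12.7, 18.1 and 7.48 CPM at d5 and 22.1, 23.5 and 56.6 CPM at d10. The abomasum held medians of 0.462 to 1.83 CPM. What the 20 genes encode, and the part of any one cell type or of the place of sampling in their spread, was not tested. The other 77 genes had medians of 25.4, 30.8 and 16.8 CPM in the reticulum and 5.59, 4.52 and 4.67 CPM in the rumen at d5. At d10 they stood at 27.8, 33.4 and 16.5 CPM in the reticulum and 5.83, 4.98 and 4.60 CPM in the rumen, and their omasum medians ran from 16.2 to 44.5 CPM over both ages. The median of the 77 genes, like that of the 20, was thus highest in library 2 and lowest in library 3 of the d10 reticulum, over a narrower range, and was higher in the omasum than in the rumen.

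**Figure D4:**
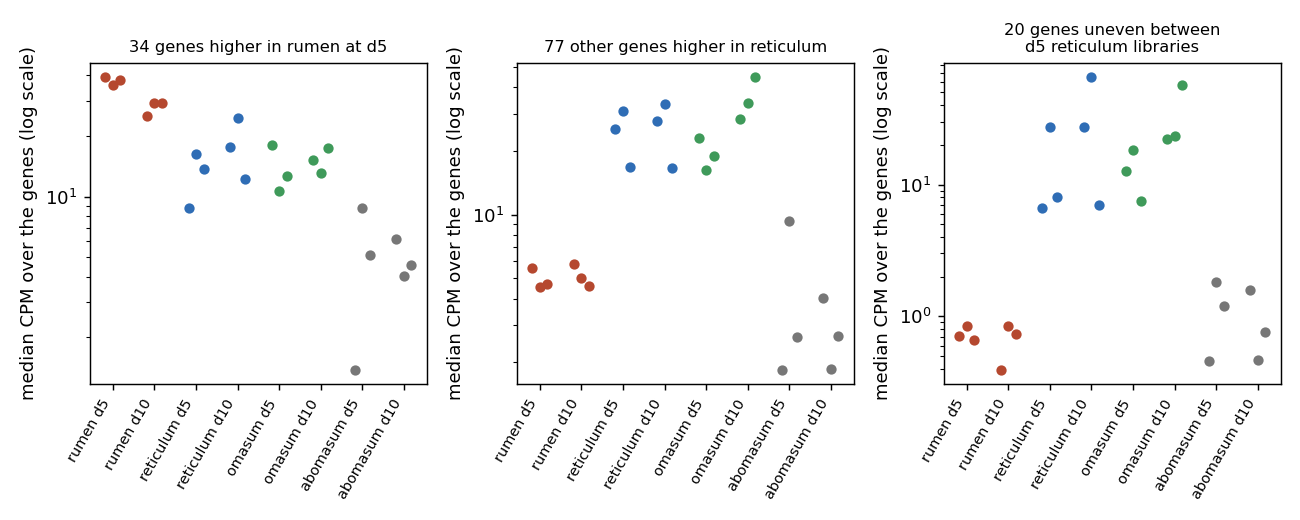
The median CPM (log axis) of the 34 genes higher in the rumen, the 20 genes picked for uneven levels between the d5 reticulum libraries and the 77 other genes higher in the reticulum is plotted for each of the 24 libraries, each point being a library. The medians of the 20 genes lie between 0.396 and 1.83 CPM in the rumen and the abomasum and between 6.64 and 64.9 CPM in the reticulum and the omasum.

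The d10 libraries, which share none with the d5 comparison, gave the d5 genes in other samples. No gene passed in rumen against reticulum at d10 (0 of 14765, 0%), where the lowest adjusted p by edgeR was 0.0556, 415 genes were under 0.1 and 2809 had an unadjusted p under 0.05. DESeq2 called 1136 genes there, limma-voom 0, and edgeR with the replicate block 113 (0.765%), of which 80 had passed with the block at d5 in the same direction. Reticulum library 3 of d10 weighed on this count, since 1162 genes passed without it and 10 without reticulum library 2.

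All 93 of the reticulum genes that could be tested at d10 had the same direction there, and 83 of them had an unadjusted p under 0.05. Their median log2 fold change was -2.79 at d5 and -2.76 at d10. Every reticulum library of d10 was above every rumen library of d10 for 81 of the 97 genes, or 83.5%, against 11% of all genes tested at d5. The 34 rumen genes were less regular. The same direction was found for 28 of them, and 11 had an unadjusted p under 0.05. Their median log2 fold change was 1.62 at d5 and 0.57 at d10, and every rumen library of d10 was above every reticulum library for 10 of the 34, or 29.4%, against 13.7% of all genes tested at d5. Over all 14138 genes tested at both ages, 75.7% had the same direction and 18.7% an unadjusted p under 0.05 at d10.

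The difference between the ages was itself tested, and no gene passed by edgeR. Of 15281 genes, 0 (0%) had an interaction of chamber and age at an adjusted p under 0.05 by edgeR (502 at an unadjusted p under 0.05, lowest adjusted p 0.468), limma-voom also gave 0, edgeR with the block 0, and DESeq2 8. By edgeR and limma-voom on all 12 libraries, no gene can therefore be said to have changed its chamber difference between d5 and d10. The count depended on the method and the libraries, since DESeq2 gave 8 and edgeR gave 7 without reticulum library 3 of d10. The lower values of the rumen genes at d10 are a description. The genes of both directions were chosen by their d5 values, so that the d5 medians are not independent of the choice.

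**Figure D5:**
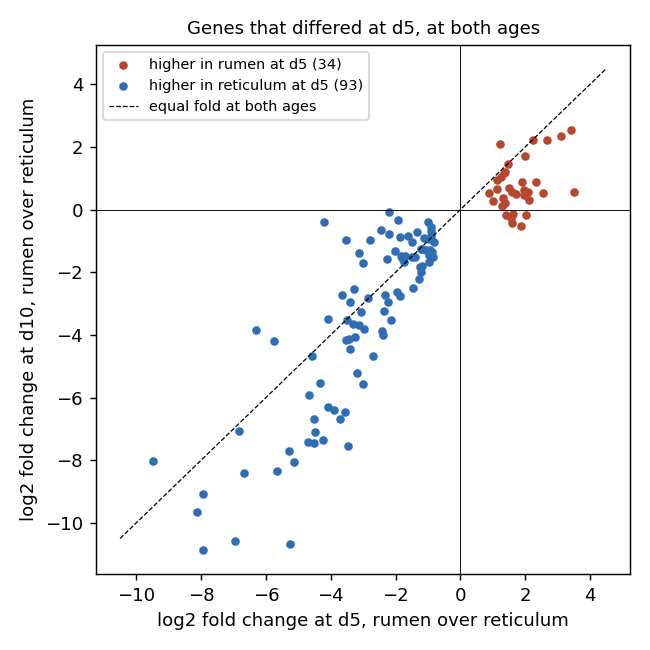
The log2 fold change of rumen over reticulum at d10 is plotted against that at d5 for the genes that passed at d5 and were tested at both ages, coloured by the chamber in which they were higher at d5, with a dashed line where both folds are equal. The 93 reticulum genes tested at both ages all lie below 0 at d10, while 28 of the 34 rumen genes lie above 0.

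The levels of the same genes in the other chambers were read against the midpoint of the d5 rumen and reticulum levels on the scale of log2(CPM + 0.1). The genes were chosen by the same d5 values that set the midpoint. The share over all genes tested was not computed, so the counts are a description and not a measure of likeness between chambers. For the 97 reticulum genes, the omasum was nearer to the reticulum than to the rumen level in 70, 59 and 57 genes in d5 libraries 1 to 3 and in 81, 85 and 86 genes in d10 libraries 1 to 3. Omasum d5 libraries 1 and 2 carried 7.37% and 94.1% of the abomasal level of the 27 abomasal genes, against 0.0668% in library 3, and the part of that signal in the values of libraries 1 and 2 was not tested. The abomasum was nearer to the reticulum in 15 to 36 of the 97 genes. For the 34 rumen genes, the omasum was nearer to the rumen level in 9 to 14 genes and the abomasum in 3 to 12. A level of at most 1 CPM in every abomasum library was found for 25 of the 97 reticulum genes (25.8%) and 6 of the 34 rumen genes (17.6%), against 6.79% of all genes tested.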

How the data were processed

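Raw counts per gene, deposited by the authors as one table of 27054 sheep Ensembl identifiers in 24 libraries, were analysed. CASAVA 1.8 and TopHat2 2.0.13 are named in the submitters' processing notes. How reads were counted, on which genome build and annotation and whether by strand is not given in the sources used here, so overlapping or antisense genes and near-identical copies may share reads. Groups and library numbers were taken from the labels.

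Counts were filtered with filterByExpr, scaled by TMM and tested with the quasi-likelihood test of edgeR 4.0.16 (two-sided) in R 4.3.3 on the 6 libraries of d5, with Benjamini-Hochberg adjustment over all genes tested and a threshold of 0.05. The standard error is the absolute log2 fold change divided by the square root of F. The comparison at d10 was fitted in the same way, and the interaction on 12 libraries. CPM are counts scaled to a library total of 1000000, TMM-scaled where overlap at d10 was counted. Alternatives were DESeq2 1.42.0, its size factors, limma-voom (limma 3.58.1), other filters on low counts, robust estimation, a minimum log2 fold change, each library left out in turn, the replicate block, and fits of 12 or 24 libraries. The edgeR fit of d5, with and without the block, was also run on simulated counts, and the other fits were not. The simulation gave both chambers the same spread between libraries, unlike these data, and no effect of the library number.

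Deviations of log2 CPM from the group means correlated above 0.1 in every same-numbered pair. The values were 0.318, 0.138 and 0.351 at d5 and 0.377, 0.395 and 0.156 at d10. The numbers served as a block in an alternative fit only, and the main fits of d5, of d10 and of the interaction did not use them. The link between same-numbered libraries comes from the data alone, since the labels name no shared lamb. Deviations within a chamber sum to 0, which lowers the values of different numbers. Counts of libraries of one group differed beyond sampling noise in every pair (chi-square per degree of freedom 20.2 to 79.3 at d5), so none was a duplicate of another. Each was counted as a sample, but whether they came from separate lambs cannot be told from these values.

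The rule for naming took the 2 genes with the largest change in each direction among genes that passed, had a mean of at least 5 CPM in the higher chamber and did not overlap. Abundant genes and the 20 genes picked for uneven reticulum levels were described after their values were seen. Members and lists were chosen with earlier results of these data known. Lists of epithelial and cell type genes were not used, since the identifiers had no names. Exact intervals cover counting error only.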

Additional observations from a re-analysis of the deposited data

How the results depend on the processing

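Counts below are genes at an adjusted p under 0.05. Causes of the changes were not tested. For rumen against reticulum at d5 (131), DESeq2 gave 778 (38.0% of them higher in the rumen, against 26.0%), no filter on low counts 365, testing against a log2 fold change of 1 gave 9, the replicate block 588, the fit of 12 libraries 49 and that of 24 libraries 35. Leaving out one library gave 4 to 746, and leaving out both libraries numbered 1, 2 or 3, chosen after seeing the data, 19, 7 and 2, where fewer libraries were compared. For d10 (0), DESeq2 gave 1136, no filter 217, the block 113, the fits of 12 and 24 libraries 582 and 436, leaving out one library 0 to 1162, and leaving out both libraries numbered 3 gave 679. For the interaction (0), DESeq2 gave 8 and leaving out one library 0 to 7. For genes passing at both ages in the same direction (0), DESeq2 gave 335, the block 80 and leaving out one library 0 to 76. The DESeq2 size factors (136), limma-voom (100), at least 10 counts (96) and robust estimation (127) stayed within 1.5 times of 131 at d5. None of the 131 genes changed direction where tested, which their lack of overlap between the chambers nearly set in advance. The gene lists were not run because the identifiers had no names. With 13041697 to 15393591 counts a library, 3 counts were 0.195 to 0.230 CPM, under which levels cannot be told from 0.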
